A study of Mus musculus with 6 samples.

Results

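The Gadd45 genes and a set of immediate early stress genes were followed in mouse megakaryocytes, the cells that release platelets. The 10 genes were Gadd45a, Gadd45b, Gadd45g, Fos, Jun, Junb, Egr1, Atf3, Ier3 and Zfp36, and every probe set that the platform annotation assigned to one of them alone was taken, 13 of the 45101 probe sets on the array. All 10 genes passed the filter on dim probe sets and were among the 11260 genes tested. The set was selected on earlier results of the comparison of FOG1 ki/ki with control, among them the log2 differences of Gadd45b, Gadd45a and Zfp36, so the values of that comparison are a description here and its p-values are not independent evidence.

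The megakaryocytes were differentiated from fetal liver cells in medium with thrombopoietin, on a mixed C57BL/6xSv129 background, and were purified on an albumin gradient, and their RNA was amplified before hybridisation. Of the 6 arrays, 3 came from cultures that the labels call FOG1-/- ki/ki, written FOG1 ki/ki here, and 3 were controls, of which replicates 1 and 2 were FOG1+/- and replicate 3 was FOG1+/+. Zfpm1 encodes FOG1, which binds GATA1 and is needed to form megakaryocytes, and the labels do not say what the knocked-in allele encodes. The labels call the cultures biological replicates without saying whether they came from separate embryos or whether equal numbers shared a litter or a day, so p-values measure the spread between these cultures. Signals of replicates 1 and 2 were deposited rounded and those of both replicate 3 arrays were not. The FOG1+/+ genotype was present only in replicate 3, so a difference between the control genotypes and a difference between replicate 3 and the other replicates cannot be told apart.

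Values were array signals on a linear scale, scaled by the authors to one trimmed mean, and differences are FOG1 ki/ki minus control on the scale of log2(signal + 16). The median signal per array was 12.3, 11.1 and 5.93 in FOG1 ki/ki replicates 1 to 3, against 10.3, 12.2 and 7.75 in control. It was lowest on both replicate 3 arrays. Zfpm1 read 480.0, 868 and 1274 in FOG1 ki/ki replicates 1 to 3, against 429.7, 862 and 1137 in control. Megakaryocyte markers, 10 of 12 measured, summed to 17732, 19769.9 and 23508 in FOG1 ki/ki, against 20096, 26338 and 25617 in control, and 10 of 10 had a lower mean log2 signal in FOG1 ki/ki (median difference -0.16). Macrophage markers, 15 of 15 measured, summed to 4484.5, 12842 and 8647 in FOG1 ki/ki, against 12518, 16915 and 9618 in control, and 15 of 15 had a lower mean log2 signal in FOG1 ki/ki. Fibroblast markers, 10 of 10 measured, summed to 1205, 3476 and 215 in FOG1 ki/ki, against 1859, 8271 and 288 in control. Neutrophil markers, 10 of 10 measured, were lowest on both replicate 3 arrays, at 4033 in FOG1 ki/ki and 2807 in control, and lay between 9394.5 and 16579.8 on the other 4. The ratio of 3' to 5' signal of Gapdh was 1.198, 1.63 and 2.38 in FOG1 ki/ki replicates 1 to 3, against 1.24, 1.74 and 1.86 in control. Xist was read at 807 in control replicate 1 and at 4.6 or lower on the other 5 arrays, and the Y-linked Eif2s3y showed the opposite, so control replicate 1 differed from the rest in sex.

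GADD45 proteins are small nuclear proteins made after DNA damage and other stress. They bind the kinase MAP3K4, which feeds the p38 and JNK stress kinases, and they also bind PCNA and the mitotic kinase CDK1. Immediate early genes are transcribed within minutes of a signal without new protein synthesis. Many of them encode transcription factors, such as the AP-1 proteins made from FOS, JUN and JUNB, and others, such as IER3 and ZFP36, feed back on the response.

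Gadd45b and Gadd45a lay lower in FOG1 ki/ki than in control on every array, and Gadd45g did not. Gadd45b, the family member induced by NF-kB and TGF-beta signalling, had signals of 74.1, 93.4 and 29.9 in FOG1 ki/ki replicates 1 to 3, against 630.3, 834 and 105 in control. The groups did not overlap, and replicate 3 was the lowest array of each group. The means were 65.8 ± 32.5 in FOG1 ki/ki and 523 ± 376 in control (SD, n = 3 each). The log2 difference was -2.40 (SE 0.73, 95% interval -4.08 to -0.72, limma adjusted p = 0.447), so Gadd45b did not pass across all genes. With the replicate number as a block the same difference passed (limma adjusted p = 0.048). Gadd45b was 11th from the lowest among the 11260 differences.

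Gadd45b was read by 3 probe sets, which share the transcript and are not independent. The other two read 69.8, 83.6 and 19.7, and 93.6, 75.5 and 26.7, in FOG1 ki/ki, against 407, 771 and 91.2, and 557, 535 and 143, in control. Their log2 differences were -2.29 in both cases, and the groups did not overlap on either probe set. In the fit with 1 row per probe set and the replicate block, limma adjusted p was 0.0556 for the brightest probe set and 0.0472 and 0.0218 for the other two, so the brightest missed the threshold there. Within pairs of equal replicate number the brightest probe set differed by -2.84, -2.96 and -1.40, and without control replicate 3, the FOG1+/+ array, the difference was -3.27 (adjusted p = 0.0731).

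The 2 FOG1+/- arrays had high Gadd45b and the FOG1+/+ array did not, so the size of the difference depends on which controls are used. FOG1 ki/ki replicate 3 was also the lowest of its group, and control genotype and replicate number cannot be told apart here. Fibroblast marker sums were also low on both replicate 3 arrays, and macrophage marker sums were lower in FOG1 ki/ki in all 3 pairs. The part of these cells in the Gadd45b signal was not tested. In bulk samples, fewer cells of a type and less RNA per cell cannot be told apart.

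**Figure D1:**
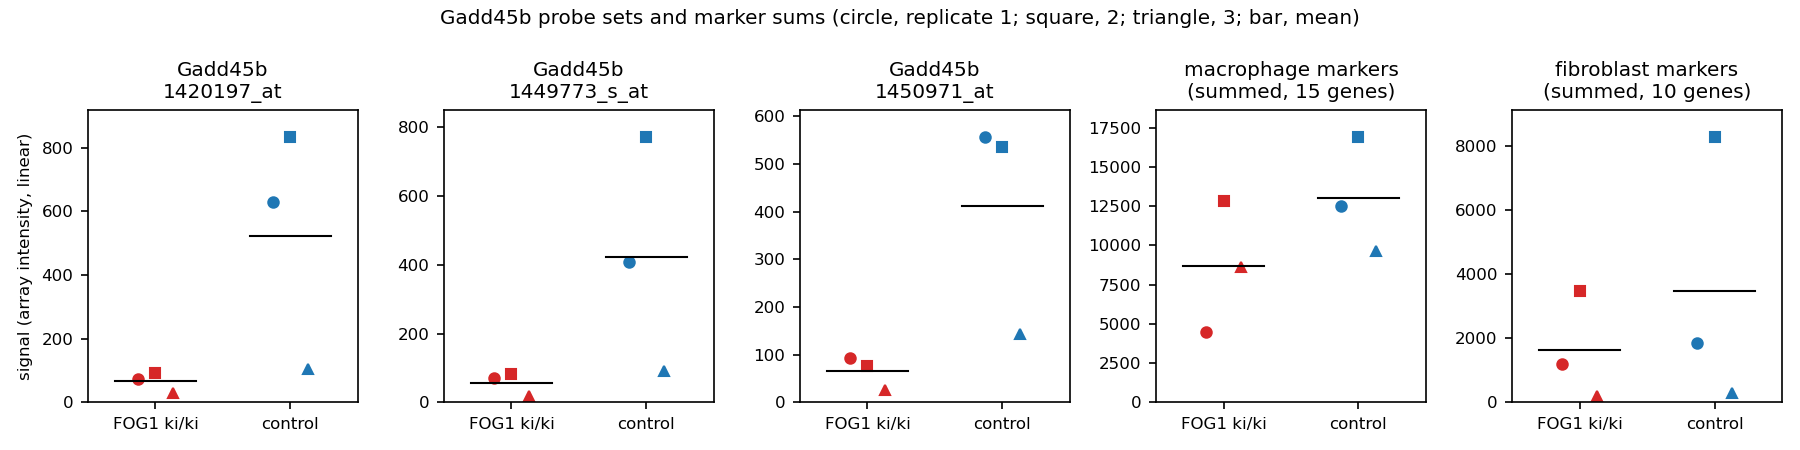
Signal (linear array intensity) of the 3 Gadd45b probe sets and the summed signal of macrophage and fibroblast markers, with FOG1 ki/ki left of control, 1 point per array and bars at the means of 3. On each Gadd45b probe set the 3 FOG1 ki/ki arrays lie below the 3 control arrays, and control replicate 3 (triangle) is the lowest control in all 5 panels.

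Gadd45a, which is also a target of p53, had signals of 151, 177 and 134 in FOG1 ki/ki, against 312, 555 and 785 in control. The groups did not overlap, the FOG1 ki/ki arrays lay close together, and the FOG1+/+ array was the highest control, where for Gadd45b it was the lowest. The means were 154 ± 21.3 in FOG1 ki/ki and 550.4 ± 236 in control (SD, n = 3 each). The log2 difference was -1.65 (SE 0.34, 95% interval -2.45 to -0.85), with limma adjusted p = 0.223, and 0.0636 with the replicate block. The pair differences were -0.98, -1.57 and -2.41. Gadd45a therefore differed most in the replicate 3 pair, while Gadd45b differed least there.

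Gadd45g, a family member known in mouse as a cytokine-inducible gene, had signals of 760.1, 617 and 1509 in FOG1 ki/ki, against 491, 691 and 862 in control. The groups overlapped, and FOG1 ki/ki replicate 3 was the highest array. The log2 difference was 0.42 (SE 0.35, 95% interval -0.40 to 1.23, limma adjusted p = 0.98).

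The promoters of the Gadd45 genes are shown because 2 of the 3 lay lower in FOG1 ki/ki and the third did not. Those of Fos and Zfp36 are shown as the AP-1 and feedback genes with the largest pair 1 differences. Sequences run from 250 bases before to 50 bases after the gene start (RefSeq, GRCm38.p6), and windows of 9 of the 10 genes were taken. The promoter of Egr1 was not used here. Capitals mark matches on either strand to any of the following motifs. The CCAAT box was searched as CCAAT and the TATA box as TATAAA. The core of the cAMP response element was searched as TGACGT and the AP-1 site as TGANTCA. The EGR site was searched as GCGNGGGCG and the GATA factor site as GATAA. The site of SRF, the CArG box, was searched as CCWWWWWWGG, where W is A or T. No matches of different motifs overlapped. The windows were chr10:80929841-80930140 on the plus strand for Gadd45b, chr6:67037358-67037657 on the minus strand for Gadd45a, chr13:51846425-51846724 on the plus strand for Gadd45g, chr12:85473640-85473939 on the plus strand for Fos and chr7:28379179-28379478 on the minus strand for Zfp36.
Gadd45b: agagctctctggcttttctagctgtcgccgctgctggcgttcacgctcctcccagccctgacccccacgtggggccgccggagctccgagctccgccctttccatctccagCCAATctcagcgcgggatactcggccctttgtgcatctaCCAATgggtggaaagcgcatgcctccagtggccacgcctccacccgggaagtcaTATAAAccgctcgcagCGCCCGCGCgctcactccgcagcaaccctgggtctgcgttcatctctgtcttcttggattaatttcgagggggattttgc
Gadd45a: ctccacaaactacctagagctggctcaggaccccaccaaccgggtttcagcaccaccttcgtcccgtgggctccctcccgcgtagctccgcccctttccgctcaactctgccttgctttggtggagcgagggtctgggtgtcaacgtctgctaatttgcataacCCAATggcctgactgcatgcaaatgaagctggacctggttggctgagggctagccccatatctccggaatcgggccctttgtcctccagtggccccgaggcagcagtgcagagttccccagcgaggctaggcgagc
Gadd45g: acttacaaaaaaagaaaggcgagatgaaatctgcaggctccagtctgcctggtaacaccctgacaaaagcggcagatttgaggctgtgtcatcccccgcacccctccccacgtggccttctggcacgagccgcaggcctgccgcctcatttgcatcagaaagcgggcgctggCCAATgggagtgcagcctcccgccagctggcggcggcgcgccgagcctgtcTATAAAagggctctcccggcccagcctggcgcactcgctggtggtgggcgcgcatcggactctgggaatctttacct
Fos: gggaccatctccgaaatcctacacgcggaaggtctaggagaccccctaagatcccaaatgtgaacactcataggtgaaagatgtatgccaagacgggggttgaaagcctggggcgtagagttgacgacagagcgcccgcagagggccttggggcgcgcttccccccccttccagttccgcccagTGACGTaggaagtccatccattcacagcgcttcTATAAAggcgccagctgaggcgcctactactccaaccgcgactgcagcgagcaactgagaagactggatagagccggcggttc
Zfp36: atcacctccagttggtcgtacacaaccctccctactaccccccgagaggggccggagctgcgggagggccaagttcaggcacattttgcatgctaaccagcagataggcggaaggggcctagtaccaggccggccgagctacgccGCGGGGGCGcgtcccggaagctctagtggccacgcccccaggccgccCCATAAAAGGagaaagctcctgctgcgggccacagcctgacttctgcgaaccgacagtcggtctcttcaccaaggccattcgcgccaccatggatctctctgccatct

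CCAAT was present in all 3 Gadd45 windows, in 7 of the 9 windows searched and in 37.4% of 32851 promoter windows of the same length. TATAAA was present in Gadd45b, Gadd45g, Fos and Junb, against 13.6% of all windows, and not in the Gadd45a window. The EGR match was in Gadd45b and Zfp36 (5.55% of all windows) and the cAMP response element core in Fos and Atf3 (7.51%). Among the 9 windows the CArG box was in that of Zfp36 alone (1.63% of all windows). Bases outside the windows and the Egr1 promoter were not searched, so sites there are not covered. GATAA was in the Jun and Atf3 windows (25.4%) and TGANTCA in none of the 9 (7.81%). The CArG box is bound by SRF and the EGR site by EGR1, and a match is a description of letters and not a bound site. The longest run shared on the same strand by Gadd45a and Gadd45b was CCTCCAGTGGCC, of 12 bases, which 5 of the 32851 windows held. Gadd45b and Gadd45g shared CCCCACGTGG, of 10 bases, which 24 windows held.

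The AP-1 genes and Egr1 overlapped between the groups. Fos had signals of 454, 1340.4 and 1173 in FOG1 ki/ki, against 1317, 1724 and 881 in control. FOG1 ki/ki replicate 1 was far below the other 5 arrays, and control replicate 3 was the lowest control. The log2 difference was -0.49 (SE 0.42, limma adjusted p = 0.982), and the pair differences were -1.50, -0.36 and 0.41.

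Jun, the partner of FOS in AP-1, had signals of 799, 1065 and 1260.3 in FOG1 ki/ki, against 1062, 928 and 570.2 in control, and FOG1 ki/ki lay 0.31 log2 units above control (SE 0.27, limma adjusted p = 0.986). Its second probe set read 415, 444 and 1027 in FOG1 ki/ki, against 597, 411 and 431 in control, a difference of 0.27. On both Jun probe sets FOG1 ki/ki replicate 3 was the highest array, and the pair differences of the brighter one were -0.40, 0.20 and 1.12.

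Junb, which encodes another AP-1 protein, had signals of 104, 109 and 157 in FOG1 ki/ki, against 167, 176 and 83.6 in control. Control replicate 3 was the lowest of the 6 arrays, and the pair differences were -0.62, -0.62 and 0.80. Atf3, a stress-induced repressor of the ATF family, had signals of 378.5, 340.5 and 415 in FOG1 ki/ki, against 562, 524 and 305 in control, and pair differences of -0.55, -0.60 and 0.42. As with Junb, control replicates 1 and 2 were the highest arrays and control replicate 3 the lowest. The log2 differences over all arrays were -0.14 for Junb (SE 0.34) and -0.24 for Atf3 (SE 0.27), both with limma adjusted p = 0.999.

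Egr1, an immediate early zinc finger factor, had signals of 1706, 2186.5 and 2940.1 in FOG1 ki/ki, against 2162, 2240.4 and 1933 in control. The lowest and the highest array were both FOG1 ki/ki, and the control arrays lay between them. The log2 difference was 0.08 (SE 0.19, 95% interval -0.37 to 0.52, limma adjusted p = 0.999), and the pair differences were -0.34, -0.03 and 0.60.

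The feedback genes followed the same order over the pairs. Zfp36, which encodes tristetraprolin, a protein that speeds the decay of cytokine mRNAs, had signals of 319, 591 and 873 in FOG1 ki/ki, against 953, 986.5 and 749.9 in control. FOG1 ki/ki replicates 1 and 2 lay below all controls and FOG1 ki/ki replicate 3 did not. The log2 difference was -0.68 (SE 0.34, 95% interval -1.47 to 0.11, limma adjusted p = 0.853), and the pair differences were -1.53, -0.72 and 0.22. Ier3, an NF-kB and stress target that acts on cell survival, had signals of 932, 965 and 1268 in FOG1 ki/ki, against 1331, 1285 and 883 in control, with pair differences of -0.51, -0.41 and 0.51. For Ier3, too, control replicate 3 was the lowest array, and the log2 difference was -0.13 (SE 0.21, limma adjusted p = 0.999).

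**Figure D2:**
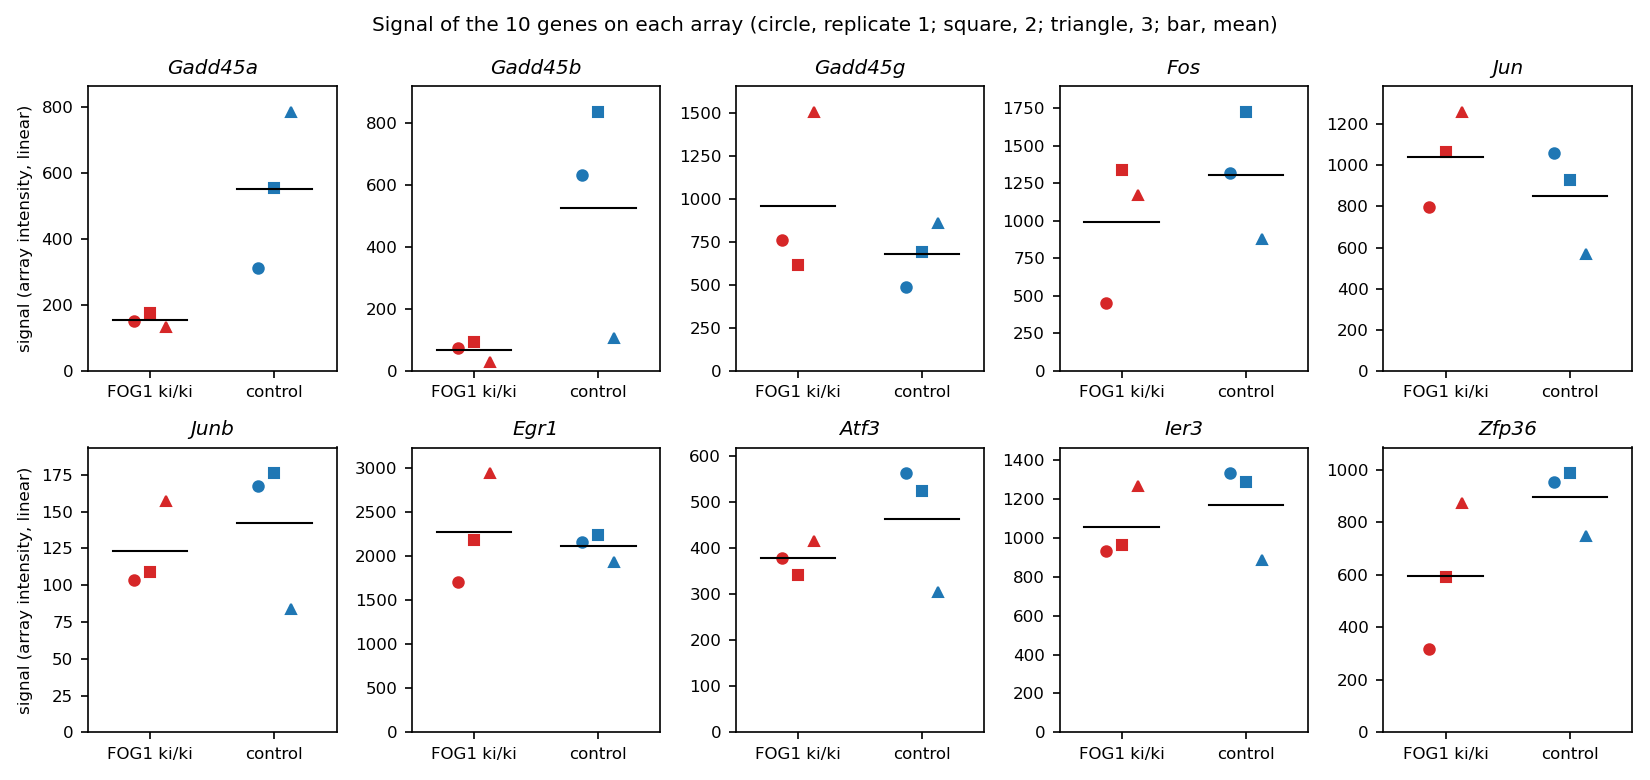
Signal (linear array intensity) of each of the 10 genes from its brightest probe set, with FOG1 ki/ki left of control, 1 point per array and bars at the means of 3. Gadd45a and Gadd45b are the only panels without overlap, and in 8 of 10 panels control replicate 3 (triangle) is the lowest control.

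Across the 10 genes, 0 passed between FOG1 ki/ki and control (limma, adjusted over all genes), while 17 of the 11260 genes did, or 0.151%, with 0.0977% higher and 0.0533% lower. At an unadjusted p under 0.05 there were 2 of the 10, Gadd45a and Gadd45b, both lower, beside 6.69% of all genes either way and 3.69% lower. A difference of at least 1 log2 unit lower was found for the same 2 of the 10 and for 3.21% of all genes. With the replicate block 1 of the 10 was called, Gadd45b, which was lower, beside 0.835% of all genes called, 0.417% lower. At an unadjusted p under 0.05 the block gave 2 of the 10, beside 18.4% of all genes. Of 22518 probe sets fitted singly, 0.0666% were called without the block and 0.524% with it, and the 13 of the 10 genes gave 0 and 2, both of Gadd45b. The groups did not overlap, with FOG1 ki/ki lower, for 2 of the 10 genes, beside 4.93% of all genes, and for none with FOG1 ki/ki higher, beside 6.32% (11.3% either way). Over probe sets this held for 4 of the 13, beside 4.9%. The median log2 difference of the 10 genes was -0.19, beside 0.03 over all genes tested, and 7 of the 10 lay below control, beside 44.9% of all genes. Nothing is read from these shares, since the genes were chosen with this comparison in view.

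**Figure D3:**
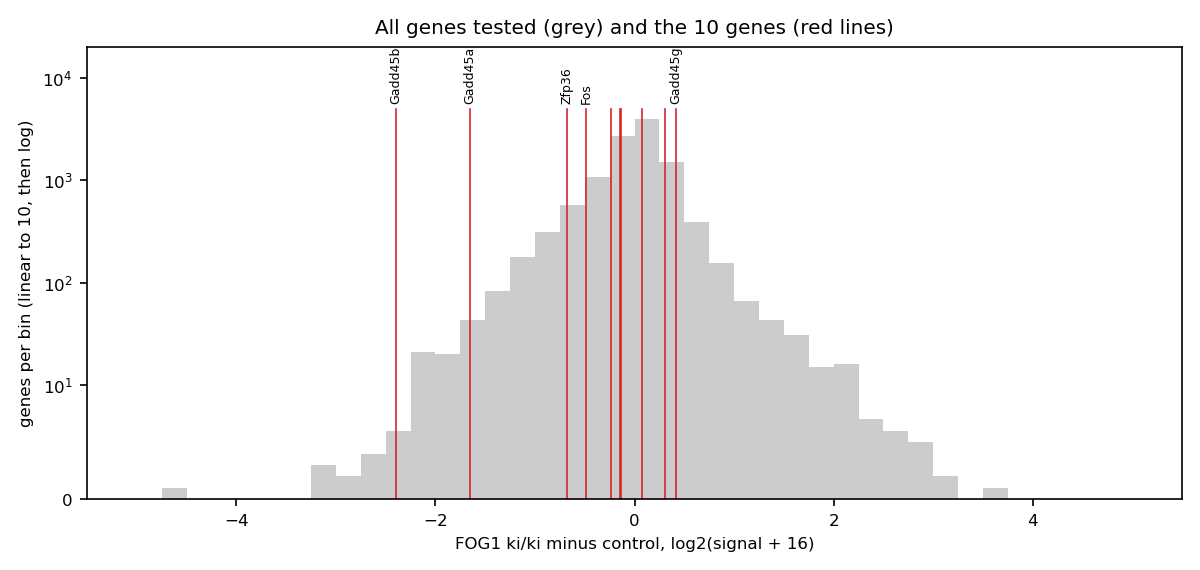
Number of genes per bin of the log2 difference, FOG1 ki/ki minus control, over all 11260 genes tested (grey, vertical axis linear to 10 and then logarithmic), with red lines at the 10 genes. Gadd45b at -2.40 and Gadd45a at -1.65 lie in the lower tail, and the other 8 lie between -0.68 and 0.42.

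The sign of most differences depended on the pair. In the replicate 1 pair 9 of the 10 genes lay lower in FOG1 ki/ki and in the replicate 2 pair also 9, beside 50% and 44.2% of all genes. In the replicate 3 pair, the only one set against FOG1+/+, 2 of the 10 lay lower, Gadd45a and Gadd45b, beside 45.6% of all genes. These 2 were lower in all 3 pairs, as were 19.3% of all genes. The median difference of the 10 genes was -0.58, -0.50 and 0.47 in pairs 1, 2 and 3, while over all genes it lay between -4.35e-05 and 0.05. Fos, Junb, Egr1, Atf3, Ier3 and Zfp36 were lower in FOG1 ki/ki in pairs 1 and 2 and higher in pair 3, a sign pattern noticed in these data that 6 of the 10 genes and 8.93% of all genes had. The difference between pairs was not tested, with 1 array per group in each. FOG1 ki/ki replicate 3 was the highest of its group for 7 of the 10 genes and control replicate 3 the lowest of its group for 8, beside 37.6% and 41.8% of all genes, and both held for 6, beside 6.08%. The 3' to 5' ratios of Gapdh and actin had the same signs, lower in FOG1 ki/ki in pairs 1 and 2 and higher in pair 3, with actin at 1.36, 2.06 and 2.76 in FOG1 ki/ki, against 1.44, 2.11 and 1.93 in control. Lymphoid marker sums also had them, at 945, 1405 and 819.7 in FOG1 ki/ki, against 1050.0, 1440.5 and 543.5 in control, although 0 of the 7 markers measured had them singly. Of single markers, 4 of 15 of macrophages, 4 of 10 of neutrophils, 3 of 10 of megakaryocytes and 1 of 8 of endothelium had these signs. The macrophage sum was lower in FOG1 ki/ki in all 3 pairs, by least in pair 3. The part of these measures in the sign pattern was not tested.

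**Figure D4:**
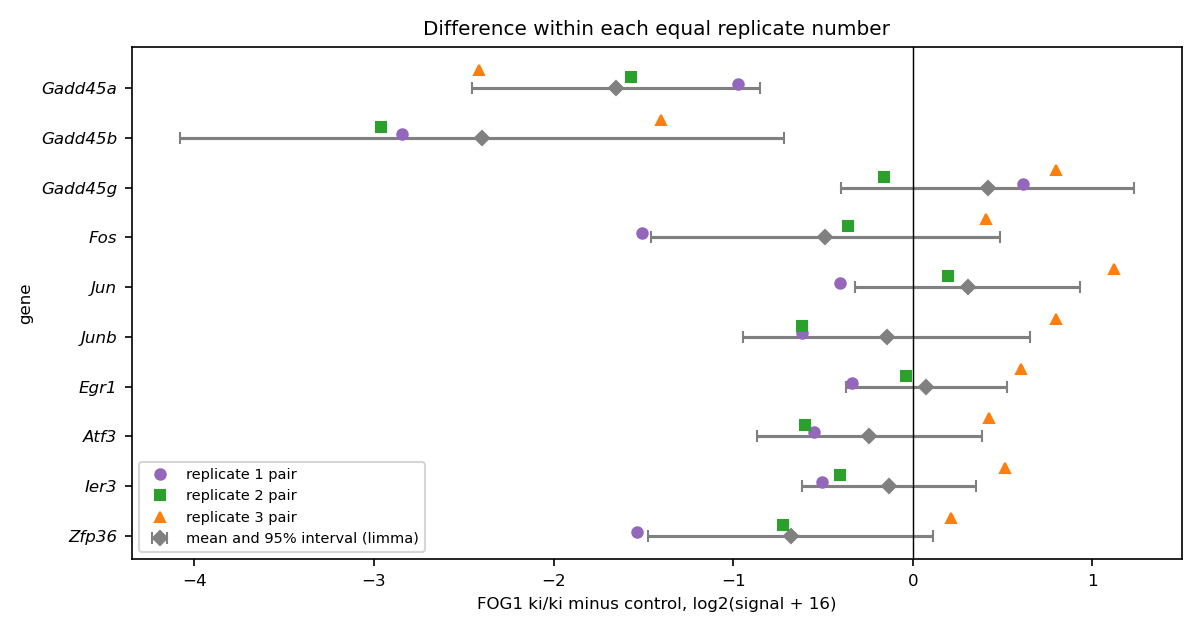
Log2 difference, FOG1 ki/ki minus control, of each gene within each equal replicate number (coloured points) and over all arrays (grey diamonds, with limma 95% intervals over 3 arrays each). The replicate 3 pair (triangles) lies above 0 for 8 of the 10 genes and below 0 for Gadd45a and Gadd45b.

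How far the genes differ between replicate numbers was not used to choose them, and it was tested by limma's F-test over all genes in a fit with genotype and number. Of the 10 genes 1 passed, Gadd45b (adjusted p = 0.0422), beside 16.5% of all genes, and at an unadjusted p under 0.05 there were 2, beside 39.4%. The share of the 10 genes called was near that of all genes. For Gadd45b the mean log2 level over both groups was 7.91, 8.25 and 6.22 for numbers 1, 2 and 3. Gadd45g was next, at 9.29, 9.39 and 10.18 (adjusted p = 0.0744), and the other 8 had adjusted p between 0.239 and 0.961. Gadd45b and Gadd45g thus ran opposite ways over the numbers, with replicate 3 lowest for Gadd45b and highest for Gadd45g. Ier3 differed least over the numbers as a mean over both groups, with a range of 0.07 log2 units. Within the groups it ran opposite ways, from 932 in replicate 1 to 1268 in replicate 3 in FOG1 ki/ki and from 1331 to 883 in control. The F-test counts only differences between numbers that both groups share. A high adjusted p therefore does not show that a gene was level over the numbers within each group. Gadd45b did not pass with a pseudocount of 64, with quantile normalization or with no filter on dim probe sets. Leaving out 1 array gave 5 of the 10 genes for control replicate 3, 4 for FOG1 ki/ki replicate 3, 2 each for FOG1 ki/ki replicate 2 and control replicate 1, and 1 each for the remaining arrays. The count over all genes moved too, between 723 and 3007 with 1 array left out, beside 1854 with all arrays. It was 3007 without FOG1 ki/ki replicate 3. The counts of the 10 genes with 1 array left out therefore cannot be read against the 16.5% of the full fit.

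Other genes of the same responses were taken from other lists, each compared with control in the same fit. Beside the counts of these lists, 44.9% of all genes lay below control. The lists were chosen with earlier results known, so nothing is read from the counts. Of 30 other immediate early genes tested, 20 lay below control and 10 above (median -0.04), 0 were called with or without the block, and 12 had the sign pattern of lower in pairs 1 and 2 and higher in pair 3. Pair by pair, this list had medians of -0.43, -0.35 and 0.53. The genes with the smallest unadjusted p ran both ways. Nr4a2, an orphan nuclear receptor, differed by 1.09 with groups that did not overlap (limma adjusted p = 0.503), the growth regulator Myc by 0.75, the small GTPase gene Rhob by -0.52 and the polo-like kinase gene Plk2 by -0.50, also without overlap (limma adjusted p = 0.875). With the mean over its probe sets, Nr4a2 differed by 0.51. Of 11 other AP-1 family genes tested, 6 lay below control and 5 above (median -0.12, 0 called), with medians of -0.0231, -0.26 and 0.26 pair by pair. Singly, 2 of the 11 had the sign pattern. In this list Jdp2, a repressor of AP-1, differed by -0.74, Mafg by -0.26, Fosl2 by 0.66 and Jund by 0.15.

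NF-kB feedback genes lay below control in 13 of 13 cases tested (median -0.23), and 0 were called. Pair by pair, the medians were -0.61, -0.71 and 0.13, and 6 of the 13 genes were lower in pairs 1 and 2 and higher in pair 3. Cd83, an activation marker of antigen-presenting cells, differed by -1.11 with groups that did not overlap (limma adjusted p = 0.541), Relb by -0.60, the NF-kB inhibitor gene Nfkbia by -0.39 and Tnfaip3, which encodes the inhibitor A20, by -0.55. The macrophage marker sums given above were also lower in FOG1 ki/ki in all 3 pairs, and their part in this list was not tested. Of 6 genes of SRF, which binds the CArG box, and of its cofactors, 4 lay below control (median -0.17, 0 called). The pair medians were -0.10, -0.10 and -0.36. Over all arrays Mrtfb was at -0.56, Elk1 at -0.40, Elk3 at 0.28 and Srf at 0.16.

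Of 23 p53 target genes tested, 18 lay below control (median -0.17), beside 44.9% of all genes, and 0 were called. With the block 1 was called, beside 0.835% of all genes, 0.417% lower. It was the death receptor gene Fas, lower in FOG1 ki/ki (log2 difference -1.67, limma adjusted p = 0.0912, blocked adjusted p = 0.0295). Fas had signals of 71.3, 73.5 and 73.1 in FOG1 ki/ki, against 216, 299.8 and 288 in control. The FOG1 ki/ki arrays were nearly equal and the groups did not overlap. Eda2r, another p53-induced receptor gene, differed by -0.83 and Mdm2, which encodes the ubiquitin ligase of p53, by -0.39, both without overlap, while Perp differed by 1.19. For 5 of the 23 the groups did not overlap, all with FOG1 ki/ki lower, beside 4.93% of all genes. Cdkn1a, which encodes the inhibitor p21 and is listed both as a p53 target and as a GADD45 partner, differed by -0.14.

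**Figure D5:**
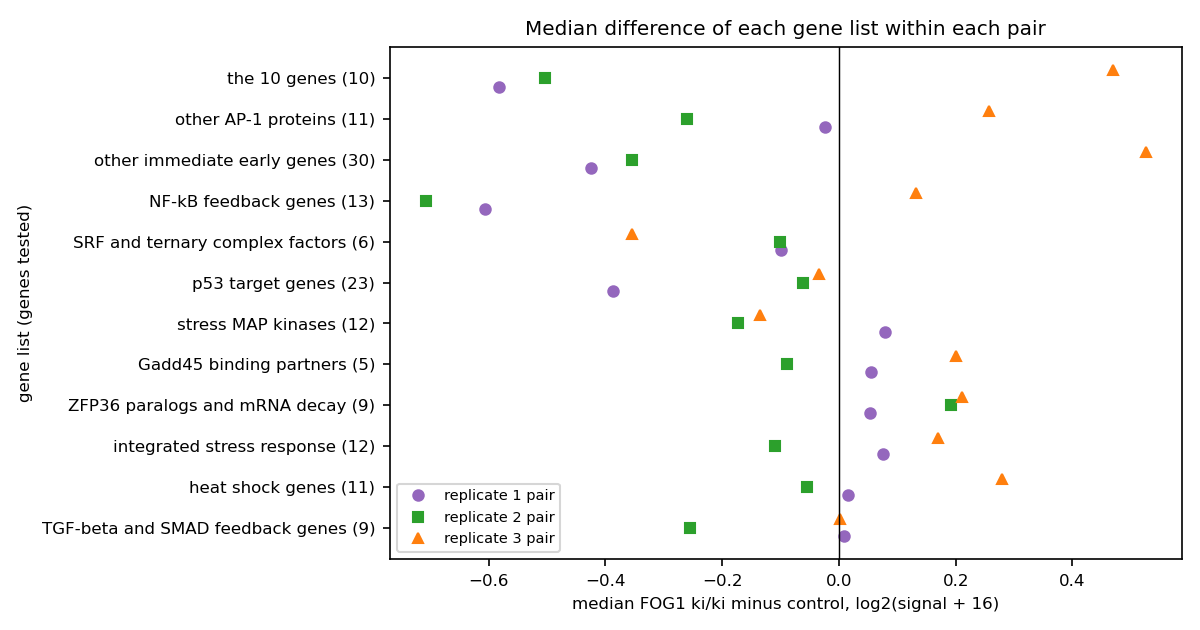
Median log2 difference, FOG1 ki/ki minus control, of the 10 genes and of 11 other gene lists within each equal replicate number, with the number of genes tested in brackets. The medians of the 10 genes, the other immediate early genes, the other AP-1 genes and the NF-kB feedback genes lie below 0 in pairs 1 and 2 and above 0 in pair 3. Those of the p53 targets and the SRF genes lie below 0 in all 3 pairs. A median does not show how many genes of a list share its signs.

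No kinase or partner gene of the GADD45 proteins that was tested was called, with or without the block. Of 16 stress MAP kinase genes listed, 12 were tested, and 7 of these lay below control (median -0.04, 0 called). Map3k1 was at -1.10, Map3k5 at 0.24, the p38 gene Mapk11 at -0.41 and Map2k4 at 0.27. Of 8 genes of GADD45 partners listed, 5 had a probe set naming them alone and were tested, so the others are not covered. Among the 5 tested, 4 lay above control (median 0.06, 0 called), with Map3k4 at 0.16, Cdk1 at 0.06 and Gadd45gip1 at 0.23. Of 9 genes of ZFP36 paralogs and mRNA decay, 8 lay above control (median 0.14, 0 called), and the exception was the paralog Zfp36l1 at -0.35, with groups that did not overlap (limma adjusted p = 0.806). Zfp36l2 differed by 0.24, Dcp2 by 0.31 and Khsrp by 0.23.

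Genes of other stress responses gave no common direction. Of 12 integrated stress response genes, 7 lay above control (median 0.05, 0 called), with Vldlr at -0.96 (limma adjusted p = 0.35, groups without overlap), Eif2ak4 at 0.57 (limma adjusted p = 0.884, also without overlap), Trib3 at 1.06 and Atf4 at 0.22. Of 11 heat shock genes, 6 lay above control (median 0.05, 0 called), with Bag3 at -0.48, Hsp90aa1 at 0.18, Hspa1b at 0.71 and Hspa5 at 0.16. Singly, 4 of the 11 were lower in pairs 1 and 2 and higher in pair 3. Of 9 TGF-beta feedback genes, 6 lay below control (median -0.05, 0 called). With the block 1 was called, beside 0.835% of all genes, 0.417% lower. It was Pmepa1, a feedback inhibitor of SMAD signalling, lower in FOG1 ki/ki (log2 difference -1.74, limma blocked adjusted p = 0.0295). Pmepa1 had signals of 24.8, 92.2 and 2.08 in FOG1 ki/ki, against 106, 372 and 47.2 in control, so it was lower in FOG1 ki/ki in every pair while the groups overlapped. With the mean over its probe sets, Pmepa1 differed by -1.09. Tgif1 differed by -0.97, Id2 by 0.78, with groups that did not overlap (limma adjusted p = 0.730), and Smad7 by 0.79.

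The genes most like Gadd45b over the 6 arrays, by Pearson correlation of log2 levels, were Aoc3 (r = 0.985), Dkk1 (0.983), Hspbap1 (0.981), 2510009E07Rik (0.973) and Cxcl16 (0.972). The first 3 were dim, and Dkk1 averaged 5.64 in FOG1 ki/ki and 19.0 in control. Those most like the mean of Fos, Jun, Junb and Egr1 were Nfam1 (r = 0.995), Ccn1 (0.973), Metrnl (0.969), Fabp5 (0.969) and Ids (0.969). Ccn1, itself an immediate early gene, had signals of 88, 281 and 306 in FOG1 ki/ki, against 395, 398 and 94.3 in control. These r values describe 6 arrays that share their scaling and pairing, and they are the highest picked from all genes tested. Those with Gadd45b also include the difference between the groups, which was known when Gadd45b was chosen.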

How the data were processed

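The deposited values are linear intensities per probe set, for which the submitters' processing notes name MAS5 and no version. Their 2% trimmed mean was 150 on every array, so arrays had been scaled to one target, and a change in total RNA per cell cannot be seen. Control probe sets (64) were left out. Probe sets with a mean of log2(signal + 16) in the lower 50% were dropped, and each gene was taken from the brightest probe set naming it alone. Of all probe sets 34958 named 1 gene, 932 several and 9211 none.

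Groups were compared two-sided by limma 3.58.1 in R 4.3.3, with linear models whose moderated variances follow a trend. Benjamini-Hochberg adjustment ran over 11260 genes, with a threshold of 0.05. The group fit was also run on simulated arrays. Those arrays had no differences between replicate numbers, which the data have, so the fit was not checked under that structure. A log2 difference understates the change of dim genes. Deviations of same-numbered arrays from their group means correlated at 0.482, 0.689 and 0.674, each over 0.1, which was read as pairing; the labels give only the shared numbers. The tests without the block remained the main ones. Alternatives were other pseudocounts, quantile and median normalization, other filters, the mean over probe sets, the block, and leaving out 1 array or both arrays of a number.

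The members and lists were chosen with earlier results of these data known. All 10 genes are named, with up to 4 genes per list by the smallest unadjusted p and the 5 genes most like Gadd45b or the immediate early mean. Ccn1 and Cdkn1a fall under these rules. Promoters came from RefSeq (GRCm38.p6). Python 3.11.15 with pandas 2.3.3 and matplotlib 3.10.9 did the rest. The number of arrays limits the precision.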

Additional observations from a re-analysis of the deposited data

How the results depend on the processing

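Gadd45a and Gadd45b stayed lower in FOG1 ki/ki under all 17 alternatives, between -2.00 and -1.27 for Gadd45a and between -3.27 and -1.90 for Gadd45b. Their groups did not overlap, so leaving out arrays, another pseudocount or the block could not turn the direction. Gadd45g (0.0432 to 0.71), Atf3 (-0.57 to -0.0628) and Zfp36 (-1.13 to -0.25) kept their direction under 17 of 17, with values that moved by more than 1.5 times. Taking the mean over probe sets moved 13 of the 54 genes named by more than 1.5 times, none of the 10 among them. Of the 10, only Gadd45b and Jun had more than 1 probe set, so the others could not move. The mean put Nfkbia at -0.64, Nr4a2 at 0.51 and Pmepa1 at -1.09. Of the 10 genes 0 were called under every alternative but the replicate block, which called 1. The block changed no other call among the genes named than those of Gadd45b, Fas and Pmepa1, all lower. Over all genes 17 were called, with 94 under the block, 8 with a pseudocount of 1, 1 with no filter on dim probe sets, 3 with the lower 75% of probe sets left out, 0 without both arrays of any one number, and 1 to 2 when 1 array was left out. Filtering changes the number of genes tested, and the cause of the other changes was not tested. The median of the 10 genes lay between -0.48 and -0.05 when 1 array was left out, at 0.04 without both arrays numbered 1, at -0.03 without both numbered 2 and at -0.60 without both numbered 3. By replicate number 1854 genes were called, 54 with no filter, and 723 to 3007 with 1 array left out. Of the 10 genes 1 was called by number, 0 with a pseudocount of 64, quantile normalization or no filter, and 1 to 5 with 1 array left out. Small differences turned with the arrays used. Without both arrays numbered 3, Jun was at -0.10, Egr1 at -0.19, Jund at -0.00396, Elk3 at -0.0893, Map3k4 at -0.0406, Cdk1 at -0.00303, Zfp36l2 at -0.00272 and Smad7 at -0.11. Without both numbered 1, Fos was at 0.0235, Junb at 0.0904 and Ier3 at 0.0535, and without both numbered 2 Junb was at 0.0908 and Ier3 at 0.00353. Leaving out 1 array gave ranges of -0.45 to 0.0239 for Junb, -0.125 to 0.26 for Egr1, -0.0457 to 0.49 for Gadd45gip1, -0.17 to 0.53 for Map3k4, -0.17 to 0.23 for Cdk1 and -0.00503 to 1.24 for Smad7.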

Other observations

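Signals of markers of other cell types were summed per array. Mast cell markers, 10 of 10 measured, summed to 6776, 6436 and 6251 in FOG1 ki/ki replicates 1 to 3, against 3334, 3249.5 and 252 in control, so the groups did not overlap, and 9 of 10 had a higher mean log2 signal in FOG1 ki/ki; Tpsb2 and Mcpt4, proteases of mature mast cells, averaged under 10. Endothelial markers, 8 of 8 measured, summed to between 1471 and 1623 in FOG1 ki/ki and to between 1195 and 1375 in control, although 5 of 8 had a lower mean log2 signal in FOG1 ki/ki. Erythroid markers, 6 of 8 measured, summed to between 288 and 469 in FOG1 ki/ki and to between 239 and 816 in control, with Hba-a1, Alas2, Slc4a1 and Ermap averaging under 10. Hepatocyte markers, 7 of 8 measured, summed to between 156 and 452 in FOG1 ki/ki and to between 333 and 500.4 in control, with Alb, Apoa1 and Ttr averaging under 10. Lymphoid markers, 7 of 8 measured, summed to between 819.7 and 1405 in FOG1 ki/ki and to between 543.5 and 1440.5 in control, with Cd3e, Cd79a and Cd3d averaging under 10. The part of these cells in the levels of the Gadd45 and immediate early genes was not tested.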
